A study of Homo sapiens with 6 samples.

Results

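Expression of 10 genes of calcium-binding protein families, 6 of the S100 family (S100A4, S100A6, S100A10, S100A11, S100A13 and S100A16) and 4 annexins (ANXA1, ANXA2, ANXA5 and ANXA6), was followed in AC16, an established human myocardial cell line. The genes were taken by symbol from a list drawn up with earlier results of these data known, by a rule that sets no condition on their values, and are 10 of the 22465 genes with a transcript cluster of their own on the array. Each was measured by a single transcript cluster, a probe set that covers the whole gene. The study hybridised RNA of 3 samples of AC16 cells kept for 24 h with PM2.5, airborne fine particles, at a dose of 50 µg/mL, and of 3 samples of control AC16 cells. The labels give no further agent or time for the controls, and all 6 samples are of the same line. The titles call the samples of a group biological replicates, but separate cultures are not stated, and the p-values below then reflect only the spread among these samples, which may be technical.

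S100 proteins are small proteins with a pair of EF-hands, helix-loop-helix folds that bind calcium. They act mostly as dimers that take hold of partner proteins when calcium rises. Annexins bind the inner face of membranes in a calcium-dependent way, through a repeated core domain, while their variable amino-terminal tails bind partners. The families meet in pairs, among them S100A10 with ANXA2 and S100A11 with ANXA1. In heart and muscle cells annexins are known for membrane repair, and exposed phosphatidylserine on dying cells is detected with labelled ANXA5.

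Values are log2 expression from RMA, a procedure that corrects background, brings arrays to a common distribution and summarises probes, and are given for each array in the order of replicates 1, 2 and 3. A gene is called above background when it read over 5.66, the highest of 23 background probe sets on any array, on at least 3 arrays. This held for 4150 genes. Mean signals of 8 spiked-in control transcripts divided the arrays into 2 sets. The high spike-in set (10.7 to 10.9) held PM2.5 replicate 1 with controls 1 and 2. The low spike-in set (10.2 to 10.3) held PM2.5 replicates 2 and 3 with control 3. Many genes followed this division more than the exposure, so each difference is also given within each set, where 1 array of a group stands against 2 of the other and there is no error. MT1X, a metal-induced metallothionein used as a check of the exposure, averaged 2.47 more after PM2.5 (SE 0.40), and 2.32 and 3.06 more within the high and low spike-in sets, but did not pass limma's test over all genes (adjusted p = 1). It was named with earlier results of these data known, so its rise is not an independent check.

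Of markers of the cell types that the sample could hold, 1 of 12 measured cardiomyocyte genes (MYL2), 4 of 10 fibroblast genes (COL1A1, COL1A2, PDGFRB and FN1), 2 of 6 smooth muscle genes, 0 of 7 endothelial genes, 1 of 10 leukocyte genes and 2 of 7 epithelial genes lay above background. The mean of the cardiomyocyte list ran from 4.27 to 4.31 on the PM2.5 arrays and from 4.28 to 4.32 on the controls. The fibroblast list ran from 5.31 to 5.61 and from 5.06 to 5.72. The epithelial list had the highest means, from 6.97 to 7.15 and from 7.03 to 7.22, but only KRT8 and KRT18 of it lay above background. EPCAM, CDH1, KRT5, KRT19 and CLDN4 did not pass the threshold, so these means do not show an epithelial type. MYH6, MYH7, ACTN2, RYR2 and NPPA, defining markers of heart muscle, did not pass the background threshold, so these readings do not show the labelled tissue by its markers.

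Above background lay 6 of the 10 genes: S100A10, S100A11 and all 4 annexins. The other 4, S100A4, S100A6, S100A13 and S100A16, stayed at or under the threshold on every array. The threshold is strict, since the value of 5.66 came from 1 probe set on control replicate 1. Against 5.14, the highest background reading of the other arrays, S100A6 and S100A16 would count as above background as well. A gene within background here was not shown to be silent.

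S100A10, the partner of ANXA2 whose EF-hands no longer bind calcium, read 6.27, 6.24 and 6.24 after PM2.5 and 6.24 on all 3 controls. The same value, to 6 decimals, stood on 5 of the 6 arrays, and PM2.5 replicate 1 alone departed from it, by 0.025. S100A11, a partner of ANXA1, read 10.58 on all 6 arrays, again the same value to 6 decimals. Repeated readings of this kind were uncommon: a value shared by at least 4 arrays was found in 2.39% of the 4150 genes above background, and in 3 of the 6 genes above background here. The third was ANXA5. Neither S100A10 nor S100A11 stood at the ceiling of the table, 19.9. For S100A11 the files hold no difference between any arrays, so a change after exposure could be neither seen nor bounded, and the same applies in practice to S100A10.

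The S100 genes within background each had 6 distinct values in a narrow band. S100A6, which is also called calcyclin, read 5.26, 5.28 and 5.17 after PM2.5 and 5.36, 5.41 and 5.30 in controls. All PM2.5 arrays lay below all controls, though by little, and all lay within background. S100A4, linked to motility and fibroblast-like states, read 4.32, 4.21 and 4.31 against 4.23, 4.37 and 4.11, with the groups interleaved. S100A13, which takes part in the release of proteins without a signal peptide, read 4.86, 4.72 and 4.72 against 4.88, 4.90 and 4.78. Here the 3 low spike-in arrays were the lowest of all, whatever their group. S100A16 read 5.53, 5.37 and 5.44 against 5.47, 5.45 and 5.37, and the low spike-in arrays were again the lowest.

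**Figure D1:**
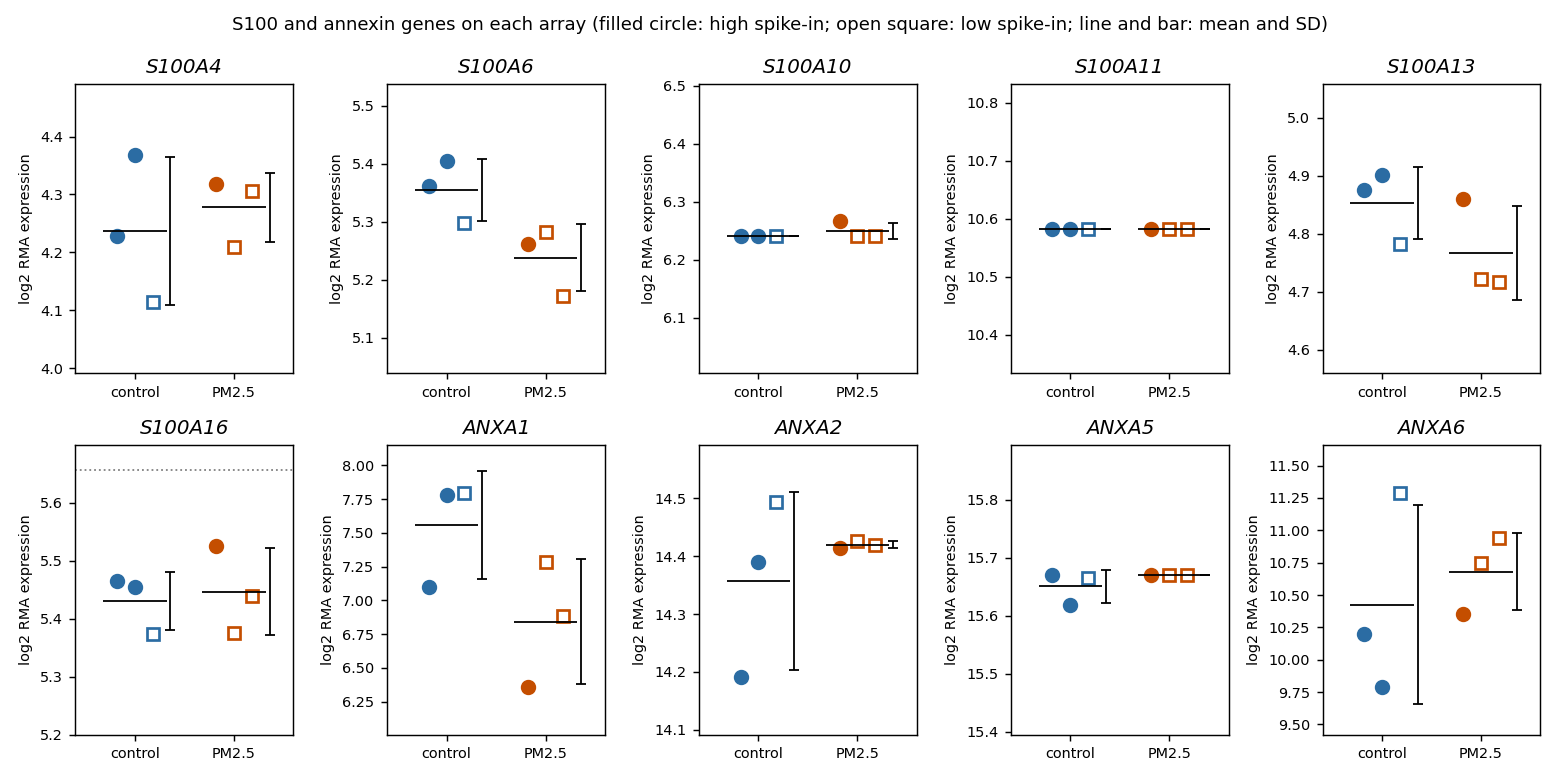
Log2 RMA expression of the 10 genes on each array, by group, each panel on its own vertical scale; filled circles are high spike-in arrays, open squares low spike-in arrays, and the line and bar give the mean and SD (n = 3). S100A11 read 10.58 on all arrays, ANXA1 lay lower on the PM2.5 arrays except for 1 overlapping array of each group, and ANXA6 was highest on the low spike-in arrays; the dotted line in the S100A16 panel is the background threshold of 5.66.

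ANXA2, which pairs with S100A10 at the membrane and binds plasminogen activators, read 14.41, 14.43 and 14.42 after PM2.5 and 14.19, 14.39 and 14.49 in controls. The PM2.5 arrays were nearly equal (SD 0.0058, n = 3), while the controls spread on both sides of them (SD 0.15, n = 3). ANXA5 read 15.67 on all 3 PM2.5 arrays and 15.67, 15.62 and 15.66 in controls, and 4 arrays held one and the same value. Over the 6 arrays ANXA2 spanned 0.30 and ANXA5 0.052, while the median span of the genes above background was 0.62. A wider span than that of ANXA2 was found in 78.1% of those genes, and a wider one than that of ANXA5 in 98.2%. These spans hold for the values as deposited. After a further quantile normalization, low minus high spike-in arrays differed by 0.64 for ANXA2 and 0.69 for ANXA5, against 0.11 and 0.01 before it.

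The remaining annexins varied more. ANXA1, a mediator that ends inflammation through formyl peptide receptors and a substrate of growth factor receptor kinases, read 6.36, 7.28 and 6.88 after PM2.5 and 7.10, 7.78 and 7.79 in controls. The 2 lowest readings were PM2.5 arrays and the 2 highest were controls, and the groups overlapped through PM2.5 replicate 2 and control replicate 1 alone. ANXA6, which carries a longer core domain than the other annexins and takes part in membrane repair in muscle, read 10.36, 10.75 and 10.94 after PM2.5 and 10.20, 9.79 and 11.29 in controls. The highest and the lowest readings were both controls, and the 3 low spike-in arrays all lay above the 3 high spike-in arrays. ANXA1 spanned 1.43 and ANXA6 1.49 over the arrays, and 15.9% and 14.7% of the genes above background spanned more.

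The 250 bases before the RefSeq start of these 2 genes (GRCh38.p14, 5′ to 3′ along the gene) are shown because they are the pair whose readings moved most between arrays. Capitals mark every match, on either strand, to a CCAAT box (those letters), a TATA box (TATAAA), the core of a metal response element (TGCACNC in one form and, in the other, TGCGCNC), the core of an antioxidant response element (TGACNNNGC) or an AP-1 site (TGANTCA). The 2 windows share only the CCAAT letters. ANXA1, chr9:73151615-73151864, plus strand, and ANXA6, chr5:151157780-151158029, minus strand:
ANXA1: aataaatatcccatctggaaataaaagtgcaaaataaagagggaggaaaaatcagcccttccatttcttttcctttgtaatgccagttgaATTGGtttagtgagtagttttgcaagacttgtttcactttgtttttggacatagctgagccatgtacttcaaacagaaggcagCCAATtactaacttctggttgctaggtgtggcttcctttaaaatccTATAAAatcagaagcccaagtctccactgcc
ANXA6: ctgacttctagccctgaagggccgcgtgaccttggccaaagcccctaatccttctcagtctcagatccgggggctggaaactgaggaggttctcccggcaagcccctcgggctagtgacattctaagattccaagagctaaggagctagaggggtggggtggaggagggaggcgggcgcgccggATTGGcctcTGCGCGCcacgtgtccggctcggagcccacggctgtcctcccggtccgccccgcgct

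ANXA1 has its TATA letters at position -31, counted back from the first transcribed base, and is poor in G and C (38.4%), while ANXA6 has no TATA match in this window and holds 65.6% G and C. RefSeq windows were found for all 10 genes. Metal response letters occurred in 2 of the 10 (S100A6 and ANXA6), against 24.7% of 27305 promoter windows of the same length, whereas the window of MT1X held 4 matches. Antioxidant response letters occurred in 1 of 10 (S100A13) against 11% of windows, AP-1 letters in 1 of 10 (ANXA2) against 6.6%, TATA letters in 3 of 10 (S100A4, ANXA1 and ANXA2) against 11.1%, and CCAAT letters in 2 of 10 against 33%. These counts lie near the shares over all windows or rest on 1 to 3 genes, and a match of letters is a description, not a site.

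The main comparison asked whether the genes differed after 24 h with PM2.5. None of the 10 passed limma's test at an adjusted p of 0.05 over all genes (adjusted p = 1 for each), and none had an unadjusted p under 0.05. Over all genes 0 of 22465 passed (0%), and 473 (2.11%) had an unadjusted p under 0.05. The means of 6 genes lay higher after PM2.5, those of 3 lower, and S100A11 was equal. Each of the 6 higher differences was smaller than its SE, and each of the 3 lower ones larger than its SE, so the tally gives no common direction. The median log2 difference of the 10 genes was 0.01, against -0.0099 over all genes. The groups did not overlap for 1 of the 10, S100A6, against 5.31% of all genes in either direction and 3.37% with PM2.5 lower. Of the 6 genes above background it was 0, against 3.28%.

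ANXA1 had the largest difference of the 10. It averaged 6.84 ± 0.46 (SD, n = 3) after PM2.5 and 7.56 ± 0.40 (SD, n = 3) in controls, a log2 difference of -0.72 (SE 0.31, 95% interval -1.46 to 0.03) or 0.609 of the control level. The limma test gave an unadjusted p of 0.0578 and an adjusted p of 1. PM2.5 lay lower in both array sets, with differences of -1.08 in the high spike-in set and -0.71 in the low one. Blocking on the array set gave -0.89 (SE 0.24, limma unadjusted p = 0.0122, adjusted p = 0.862). It did not pass in that fit either, in which 5.76% of all genes and 6.7% of those above background had an unadjusted p under 0.05. Of the 4150 genes above background 141 (3.40%) had a lower log2 difference than ANXA1, and 17 (0.410%) had one with the block. ANXA1 was singled out as the largest difference of the 10, so these shares are ranks and not a test. ANXA1 lay lower after PM2.5 under all 16 alternative settings tried for it, with differences of -0.94 to -0.25, and passed under none.

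ANXA6 averaged 10.68 ± 0.30 after PM2.5 and 10.43 ± 0.77 in controls (SD, n = 3 each), a log2 difference of 0.25 (SE 0.42, 95% interval -0.77 to 1.28, limma adjusted p = 1). The array sets went opposite ways, 0.36 in the high spike-in set and -0.44 in the low one, and blocking on the array set gave -0.04 (SE 0.23). The direction of ANXA6 after exposure was therefore not settled by these arrays.

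Among the genes with small differences, ANXA2 lay 0.06 higher after PM2.5 (SE 0.10, 95% interval -0.19 to 0.32), with 0.12 and -0.07 within the high and low spike-in sets. ANXA5 lay 0.02 higher (SE 0.05, interval -0.10 to 0.14). These intervals rest on readings that were equal or nearly so on several arrays. S100A6 differed by -0.12 (SE 0.07, interval -0.28 to 0.04), with -0.12 and -0.07 within the sets. S100A13 differed by -0.09 (SE 0.06), S100A4 by 0.04 (SE 0.07) and S100A16 by 0.02 (SE 0.07). The 95% interval of each includes 0.

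**Figure D2:**
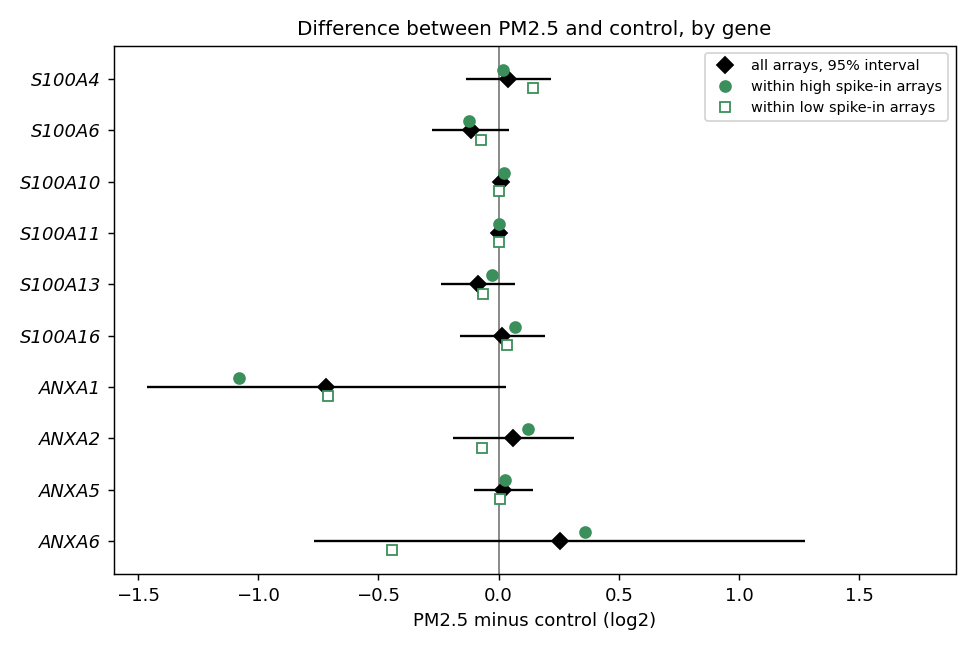
Log2 difference, PM2.5 minus control, for the 10 genes; diamonds and bars are the limma estimate over all 6 arrays with its 95% interval, and green symbols the differences within each spike-in set. ANXA1 lies at -0.72 with both sets below 0, ANXA6 at 0.25 with the sets on opposite sides, and no bar is drawn for S100A10 and S100A11, whose readings were the same on 5 and 6 arrays.

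The array sets were compared in a fit that also held the exposure. None of the 10 genes passed at an adjusted p of 0.05 in limma. The unadjusted p was under 0.05 for 2 of them (ANXA6 and S100A13), and for 6746 of all 22465 genes. At the adjusted threshold 1810 of all genes (8.06%) passed, 1214 (5.4%) higher and 596 (2.65%) lower in the low spike-in set. Among the genes above background 1126 (27.1%) did. ANXA6 came closest, at 0.89 higher in the low spike-in set (SE 0.23, limma unadjusted p = 0.0112, adjusted p = 0.0786), with the 2 sets not overlapping (10.99 ± 0.27 against 10.12 ± 0.29, SD, n = 3 each). The readings of ANXA2 did not overlap between the sets either, with a difference of 0.11 (SE 0.08, adjusted p = 0.418). S100A13 and S100A16 were lower on every low spike-in array, with differences of -0.12 (SE 0.04, adjusted p = 0.110) and -0.10 (SE 0.05, adjusted p = 0.240). Over all genes, readings of the 2 sets failed to overlap in 40.3%, so 4 of 10 is at that background. Of the genes above background 64% did so, against 2 of 6 here. ANXA1 was 0.54 higher in the low set (SE 0.24, adjusted p = 0.203), with overlap.

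**Figure D3:**
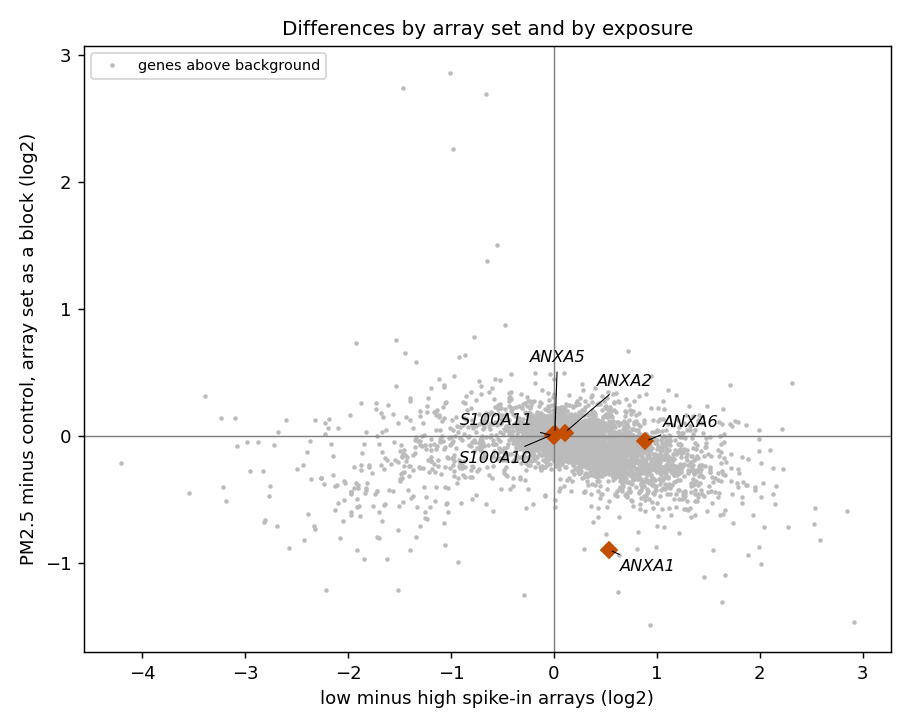
Each grey point is 1 of the 4150 genes above background, with the log2 difference between the low and high spike-in arrays on the horizontal axis and the log2 difference between PM2.5 and control, array set as a block, on the vertical axis; diamonds are the 6 S100 and annexin genes above background. ANXA6 lies at 0.89 and -0.04, ANXA1 at 0.54 and -0.89, and the other 4 near the origin.

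ANXA2 has processed pseudogenes, copies close to its own sequence that may share probes with it, and these have clusters of their own. They were looked up after the data had been examined. ANXA2P2 read 17.77, 18.61 and 18.22 after PM2.5 and 17.63, 18.17 and 19.00 in controls, a span of 1.37 where ANXA2 itself spanned 0.30. ANXA2P1 read 7.91, 7.84 and 7.90 after PM2.5 and 8.14, 8.68 and 10.33 in controls. All PM2.5 arrays lay below all controls for ANXA2P1, which held for 1.49% of the genes above background. Its log2 difference of -1.17 (SE 0.55, limma unadjusted p = 0.0781, adjusted p = 1) was -0.53 without control replicate 3, and within the array sets it was -0.50 (high) and -2.46 (low). ANXA2P3 lay within background. How much RNA of ANXA2 was read in these clusters was not tested.

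**Figure D4:**
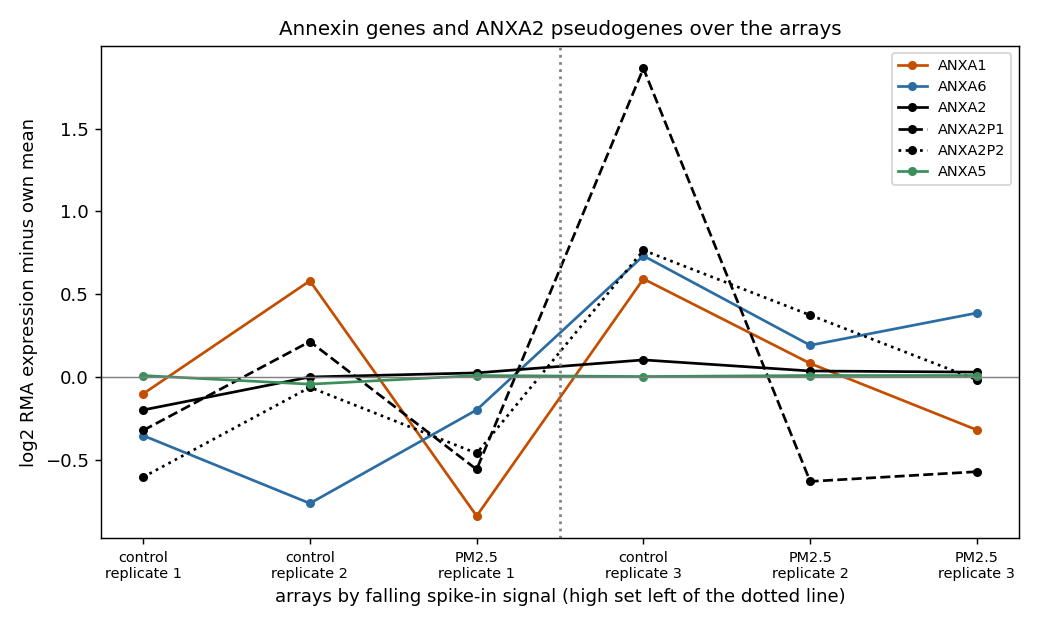
Log2 RMA expression of 4 annexins and 2 ANXA2 pseudogenes, each minus its own mean over the 6 arrays, with the arrays ordered by falling spike-in signal. In the values as deposited, ANXA2 and ANXA5 vary less than the others. ANXA1, ANXA2, ANXA6, ANXA2P1 and ANXA2P2 all read highest on control replicate 3.

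Of 15 other S100 genes measured, 0 lay above background, among them S100A8 and S100A9, the calprotectin subunits of myeloid cells, and S100B, an astrocyte and melanocyte product. Against the lower threshold of 5.14, S100A9 would pass, on 3 arrays. None passed limma's test for PM2.5, and their median log2 difference was -0.04. S100A1, the S100 protein typical of heart muscle, read 3.75, 3.77 and 3.78 after PM2.5 and 3.87, 3.83 and 3.82 in controls, all within background. Of 7 other annexins measured, 3 lay above background and 0 passed for PM2.5 (median 0.0027). Annexin A8 clusters, 4 in number, carry more than 1 symbol and were left out.

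ANXA7, a membrane fusion annexin also called synexin, read 6.69, 7.76 and 7.35 after PM2.5 and 6.72, 6.54 and 8.12 in controls. Like ANXA6 it was higher on all low spike-in arrays, and it passed the array set test at 1.18 higher (limma adjusted p = 0.0365). ANXA4 passed as well, at 0.40 higher in the low set (adjusted p = 0.0443), as did 27.1% of the genes above background in either direction. ANXA11 read 6.03, 6.06 and 6.07 against 6.07, 5.90 and 6.19 and did not pass.

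Of 15 partner and receptor genes 0 passed limma's test for PM2.5 in either direction, as did 0% of all genes, and their median log2 difference was 0.0022. AHNAK, a giant scaffold that binds the S100A10 and ANXA2 complex, averaged 7.36 ± 0.23 against 7.32 ± 0.41 (SD, n = 3). BSG, or basigin, averaged 9.33 ± 0.20 against 9.06 ± 0.31, and PLAUR, the urokinase receptor, 5.73 ± 0.06 against 5.85 ± 0.27. FPR1, FPR2 and FPR3, the formyl peptide receptors through which ANXA1 signals, and AGER, a receptor of extracellular S100 proteins, lay within background.

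Of 11 measured genes of membrane repair and the calpain group 0 passed for PM2.5 (median 0.03), and 3 passed as higher in the low spike-in set. All 3 were among the 6 above background, where 27.1% of genes passed that test in either direction. MYOF, or myoferlin, averaged 9.10 ± 0.76 after PM2.5 and 8.74 ± 1.18 in controls, CAPN1, a calcium-activated protease, 10.80 ± 0.24 and 10.73 ± 0.20, and its small regulatory subunit CAPNS1 15.67 ± 0.12 and 15.77 ± 0.09. Of 11 other EF-hand calcium sensors 0 passed for PM2.5 (median -0.0058), while 3 passed as higher and 1 as lower in the low spike-in set, against 5.4% and 2.65% of all genes. The lower one lay within background, and the 3 higher were among the 5 above background, where 27.1% of genes passed. CALU, or calumenin, averaged 11.70 ± 0.80 and 11.63 ± 0.99, CHP1 9.34 ± 0.65 and 9.02 ± 0.86, and CIB1 6.75 ± 0.16 and 6.79 ± 0.14 (SD, n = 3 per group throughout).

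The mean profile of the 10 genes, each centred on its own mean, was lowest on PM2.5 replicate 1 (-0.08) and highest on control replicate 3 (0.12), and it is carried mostly by ANXA1 and ANXA6. Outside the list, the genes above background whose readings were most like it over the 6 arrays were DGUOK (Pearson r = 0.998), MCU (r = 0.982), ACTR10 (r = 0.982), RALB (r = 0.979) and RAB6A (r = 0.977). DGUOK, a mitochondrial deoxyguanosine kinase, read 6.59, 6.76 and 6.75 after PM2.5 and 6.65, 6.77 and 6.97 in controls. MCU, the pore of the mitochondrial calcium uniporter, read 6.01, 6.31 and 6.18 against 6.16, 6.31 and 6.61. These are the closest of 4092 candidates on 6 arrays that share the division by spike-in signal, so the likeness is a description only.

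Among the genes themselves the readings had no common order. Over the 6 arrays the Pearson r of a pair ran from -0.81 (S100A13 and ANXA6) to 0.77 (S100A6 and S100A13), over arrays that share the division by spike-in signal. ANXA1 and ANXA6 had an r of 0.06, and ANXA1 and ANXA2 one of 0.19. S100A13 was lowest and ANXA6 highest on the 3 low spike-in arrays. S100A10 and S100A11, which are neighbours on chromosome 1, could not be compared in this way, because their readings hardly varied.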

How the data were processed

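Total RNA of AC16 cells was labelled with biotin and hybridised to Affymetrix arrays, per the labels' protocols. The deposited log2 expression values are the authors' output of RMA, as the submitters' processing notes name it. A software version and a genome build are not given in the sources used here. Of 67528 transcript clusters 23781 carry 1 gene symbol in the platform annotation, and the cluster with the highest mean over the 6 arrays stood for each gene. The limma package (3.58.1, R 4.3.3) gave two-sided tests with moderated, intensity-dependent variances, adjusted over 22465 genes by Benjamini-Hochberg, after a check on simulated data. The array set, split at the widest gap in mean spike-in signal, is a grouping drawn from the arrays themselves and not from the labels. Whether gene differences between the sets are technical or come from the samples was not tested. The 10 genes, the lists beside them, MT1X and the tests were chosen with earlier results of these data known, and ANXA2 pseudogenes were added after the values had been seen. By rule all 10 genes were named, with up to 3 genes of each list that had the highest means above background and the 5 genes most like the mean profile. S100A1, S100A8, S100A9, S100B, FPR1, FPR2, FPR3 and AGER were named outside this rule, for their roles, after their values had been seen. Arrays have no depth, and their number limits the precision. Promoter letters came from RefSeq (GRCh38.p14).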

Additional observations from a re-analysis of the deposited data

How the results depend on the processing

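No gene of the 22465 and none of the 10 passed for PM2.5 in limma under any of the 16 alternatives, leaving out each array in turn included. The count of genes with an unadjusted p under 0.05 was lowest among genes above background alone (35 of 4150). It was highest with array weights, at 6517 of 22465. Of the 10 genes 4 had such a p with array weights, and 0 or 1 under every other setting. For replicate numbers 1, 2 and 3 of the titles, deviations from the group mean correlated between PM2.5 and control at 0.78, -0.65 and 0.77. All pairs within a spike-in set were positive and all pairs across the sets negative. The correlations therefore cannot tell whether the numbers pair the samples. With the replicate number as a block 0 genes passed. ANXA1 kept its direction in 16 of 16 settings, and S100A6 and S100A13 in 15 of 15. ANXA5 kept its direction in 16 of 16. All its PM2.5 arrays shared its highest value, so leaving out an array could not turn it. ANXA2 turned without control replicate 1 (-0.02), and ANXA6 when the array set was blocked (-0.04) and without control replicate 2 (-0.06), while without control replicate 3 it was 0.68. S100A4 turned without control replicate 3 (-0.02), and S100A16 with array weights (-0.03), without PM2.5 replicate 1 (-0.02) and without control replicate 3 (-0.01). After a further quantile normalization ANXA2 lay 0.44 and ANXA5 0.37 higher after PM2.5, neither passing. Of the 10 genes, 0 differed between the array sets as first analysed, and 0 with any single array left out. Without the treatment term 1 of the 10 did (ANXA6), beside 2231 of all 22465 genes. After quantile normalization 2 did (ANXA2, 0.64, and ANXA5, 0.69), beside 1560 of 22465. Among genes above background 1 of 6 did (ANXA6), beside 1898 of 4150. The count of all genes, 1810, ran from 1 to 827 without 1 array: 4, 26 and 827 without PM2.5 replicates 1, 2 and 3, and 74, 496 and 1 without control replicates 1, 2 and 3. The cause was not tested. Readings repeated on several arrays limit what S100A10, S100A11 and ANXA5 can show.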
